A study of Mus musculus with 3 samples.

Results

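Glycolysis turns glucose into pyruvate, and a group of 37 mouse genes was followed that takes in the transporters and enzymes of this route, the regulators that sense oxygen, and their known targets. The members were listed by their known function, from glucose uptake to the hypoxia response, and not by any value measured here. Earlier results of these data were known when they were listed. All 37 were among the 23284 gene symbols of the deposited tables. They fall into 7 roles, which order the results. There are 4 glucose and lactate transporters, 9 genes of upper glycolysis, 6 of lower glycolysis and 3 that set the fate of pyruvate. The rest are 2 fructose 2,6-bisphosphate enzymes, 4 HIF subunits and prolyl hydroxylases, and 9 HIF targets outside glycolysis.

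RNA was sequenced from cells of embryonic mouse digits sorted by green fluorescence, in 3 libraries with 1 library per group. The Lgr5+ library held GFP-positive cells from forelimb digits of E14.5 embryos carrying Lgr5-eGFPCreERT2/+ on a C57/bl6 background, labelled as interzone, the tissue that precedes the joint. The Lgr5- library held GFP-negative cells of the same line, digits and day, labelled as outside the interzone. The Sox9+ library held GFP-positive digit cells of E13.5 embryos carrying Sox9-eGFP/+ on C57/bl6, with the limb not named in the labels. In these reporters the Lgr5 or Sox9 locus drives GFP, so the groups were set by fluorescence and not by position in the digit, and every embryo carried 1 of the reporter alleles. Line and day differ together between the Sox9+ library and both others and cannot be told apart there. The number of embryos behind each library is not given in the labels.

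Each table gave 1 value per gene in FPKM, a fragment count divided by the length of the transcript and by the library total, which is per length and so allows levels to be compared between genes. Values summed to 534025, 547115 and 593871 FPKM in the Lgr5+, Lgr5- and Sox9+ libraries, and 12002, 11969 and 11924 genes reached 1 FPKM. Depth could not be recovered from the values and is unknown. The sorting gene Lgr5 stood at 26.8 FPKM in Lgr5+ cells, 1.36 FPKM in Lgr5- cells and 3.48 FPKM in Sox9+ cells. The joint marker Gdf5 was listed at 615, 71.7 and 59.9 FPKM. Ratios below are log2 ratios of FPKM + 1, which understate the change of low genes, and a fold is that ratio on the linear scale. A gene counted as measured in a pair when the higher library reached 1 FPKM. With 1 library per group no difference has a replicate check, an error or a p-value, and the 3 pairs share libraries with each other. In such bulk samples fewer cells of a type and less RNA per cell cannot be told apart.

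In glycolysis, hexokinase, phosphofructokinase and pyruvate kinase catalyse the steps held to be irreversible, and lactate dehydrogenase regenerates the cofactor that keeps the route running without oxygen. Hypoxia-inducible factor (HIF) is a transcription factor whose alpha subunit is hydroxylated by oxygen-dependent prolyl hydroxylases and then degraded, so that it accumulates at low oxygen and binds a short DNA element near genes of glucose uptake, glycolysis, vessel growth and mitophagy. Cartilage condensations of the limb lack vessels, and in mouse Hif1a is needed for the survival of growth plate chondrocytes.

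The lowest of the 3 values lay in Lgr5- cells for most of these genes. The 17 enzymes from hexokinase to lactate dehydrogenase summed to 5089 FPKM in Lgr5+ cells, 3338 FPKM in Lgr5- cells and 5053 FPKM in Sox9+ cells. As shares of all FPKM these sums were 0.953%, 0.610% and 0.851%. Of the 36 members at 1 FPKM or more in some library, 26 (72.2%) were lowest in Lgr5- cells, against 35.9% of the 12754 genes that met the same minimum. Highest in Lgr5+ cells were 18 (50%), against 39% of all such genes, and 16 (44.4%) were highest in Sox9+ cells, against 34.3%. Under 4 other scalings of the libraries, 25 or 26 members were lowest in Lgr5- cells, against 27.3% to 32.9% of all genes. Highest in Lgr5+ cells were 18 to 20 members, against a share of all genes that ran from 29.3% to 47.6%; the highest share, after TPM, stood beside 20 members. The 2 members (5.56%) highest in Lgr5- cells were Pfkm and Ndrg1, against 26.6% of all genes.

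**Figure D1:**
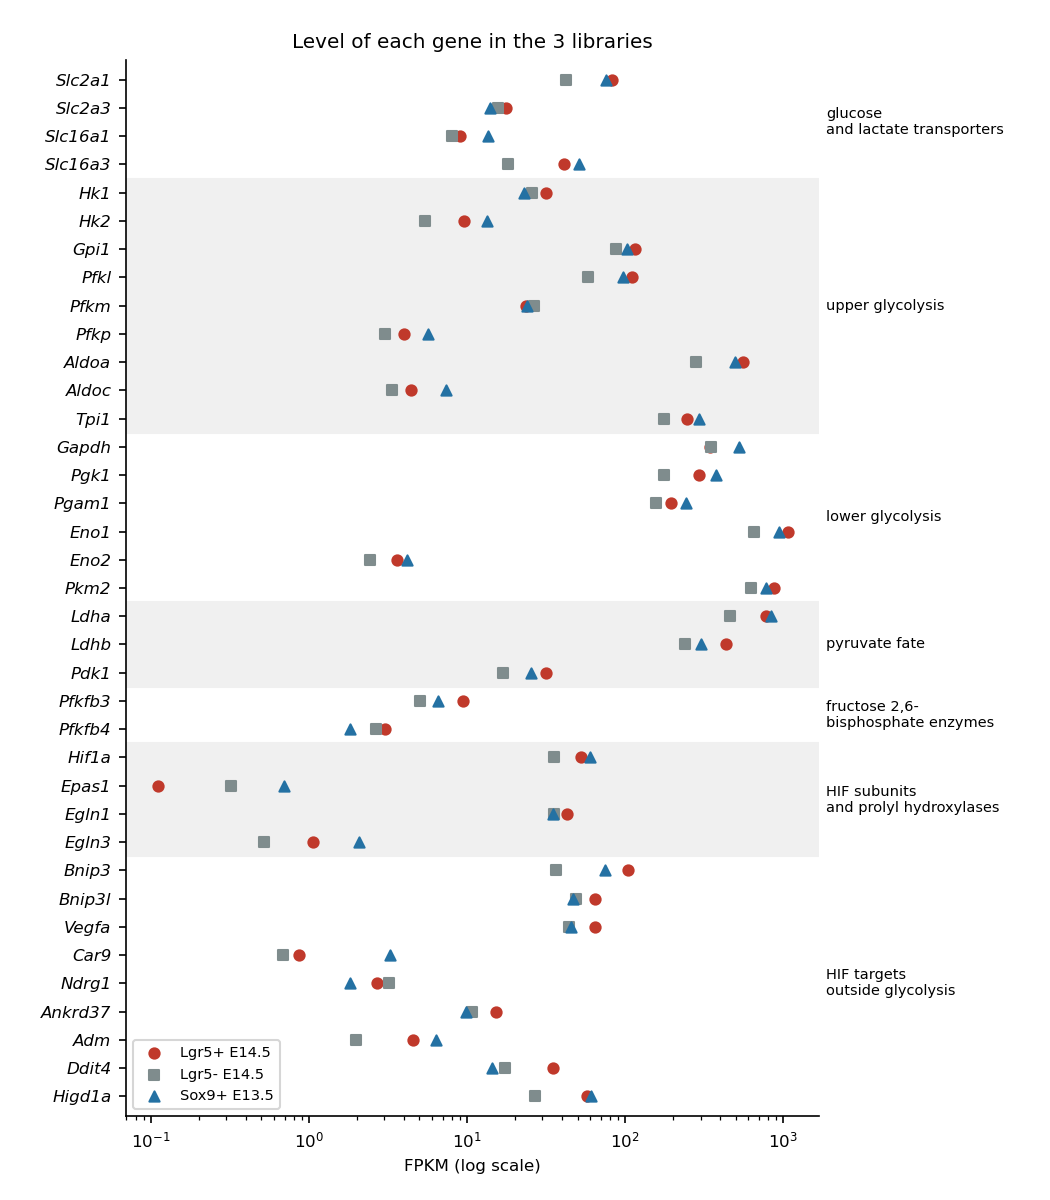
FPKM of the 37 genes in each library on a logarithmic axis, ordered by role, with 1 point per library (circles Lgr5+ E14.5, squares Lgr5- E14.5, triangles Sox9+ E13.5). Values run from 0.11 FPKM for Epas1 in Lgr5+ cells to 1065 FPKM for Eno1 in the same library, and the square is the leftmost point for 26 of the 36 genes that reach 1 FPKM.

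Glucose enters cells mainly through GLUT proteins, and lactate leaves them through monocarboxylate transporters. Slc2a1, which encodes the glucose transporter GLUT1, stood at 82.02 FPKM in Lgr5+ cells, 42.0 FPKM in Lgr5- cells and 75.5 FPKM in Sox9+ cells. The Lgr5+ value was 1.93-fold that of the Lgr5- library (log2 ratio 0.95), and the Lgr5+ and Sox9+ values lay close together (log2 ratio 0.12). Slc2a3, the high-affinity transporter GLUT3, varied little, with 17.6, 15.8 and 13.9 FPKM in the Lgr5+, Lgr5- and Sox9+ libraries. Slc16a3, which encodes the lactate exporter MCT4, had 40.9 FPKM in Lgr5+ cells, 18.0 FPKM in Lgr5- cells and 51.4 FPKM in Sox9+ cells. It was 2.20-fold higher in Lgr5+ than in Lgr5- cells (log2 ratio 1.14) and 2.75-fold lower in Lgr5- than in Sox9+ cells (log2 ratio -1.46), the lowest log2 ratio of any member in that pair. Slc16a1 encodes MCT1, which carries lactate either way, and gave 9.0, 8.08 and 13.6 FPKM in the 3 libraries. Slc2a1 thus made up 82.3% of the summed FPKM of both glucose transporters in Lgr5+ cells, 72.7% in Lgr5- cells and 84.4% in Sox9+ cells. Slc16a3 made up 81.97%, 69.1% and 79.0% of the lactate transporter sum. Such shares are taken within a library and do not move with its scaling.

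Upper glycolysis spends ATP to prime glucose and splits it into triose phosphates. Hexokinase, the first enzyme, was mostly Hk1, with 31.4 FPKM in Lgr5+ cells, 25.7 FPKM in Lgr5- cells and 22.9 FPKM in Sox9+ cells. Hk2, the isoform known to be induced by HIF and insulin, stood at 9.58, 5.43 and 13.46 FPKM in that order, so it was 2.25-fold lower in Lgr5- than in Sox9+ cells (log2 ratio -1.17). Its share of the hexokinase sum was 23.4% in Lgr5+ cells, 17.4% in Lgr5- cells and 37.0% in Sox9+ cells. Gpi1, glucose phosphate isomerase, gave 115, 87.3 and 102 FPKM. Phosphofructokinase, the committing step, has 3 genes that behaved unlike each other. The liver-type gene Pfkl had 110.0 FPKM in Lgr5+ cells, 58.6 FPKM in Lgr5- cells and 96.3 FPKM in Sox9+ cells, with a log2 ratio of 0.90 between the Lgr5+ and Lgr5- libraries. The muscle-type gene Pfkm had 23.7, 26.6 and 23.9 FPKM, and its log2 ratio in the same pair was -0.16. The platelet-type gene Pfkp stayed low, at 3.99, 3.01 and 5.68 FPKM. As a share of the summed phosphofructokinase FPKM, Pfkl was 79.9% in Lgr5+ cells, 66.4% in Lgr5- cells and 76.5% in Sox9+ cells, and Pfkm was 17.2%, 30.2% and 19.0%.

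Aldolase splits fructose bisphosphate, and Aldoa carried 99.2%, 98.8% and 98.5% of the summed FPKM of Aldoa and Aldoc in the Lgr5+, Lgr5- and Sox9+ libraries. Aldoa stood at 555 FPKM in Lgr5+ cells, 281 FPKM in Lgr5- cells and 496 FPKM in Sox9+ cells, with a fold of 1.97 between the Lgr5+ and Lgr5- libraries (log2 ratio 0.98). It was the largest ratio of that pair among the glycolytic enzymes of the list. Aldoc, the brain-type aldolase, was at 4.40, 3.34 and 7.38 FPKM. Tpi1, which interconverts the triose phosphates, had 247 FPKM in Lgr5+ cells, 177 FPKM in Lgr5- cells and 292 FPKM in Sox9+ cells.

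Lower glycolysis recovers ATP and held the most abundant transcripts of the list. Gapdh, which oxidises glyceraldehyde phosphate, did not follow most of the other enzymes. Its values were 347 FPKM in Lgr5+ cells, 348 FPKM in Lgr5- cells and 525 FPKM in Sox9+ cells. The log2 ratio of Lgr5+ over Lgr5- was -0.01 and lay between -0.13 and 0.03 over the scalings tried, and the log2 ratios over the Sox9+ library were -0.60 for Lgr5+ and -0.59 for Lgr5-. Pgk1, phosphoglycerate kinase, had 294 FPKM in Lgr5+ cells, 175 FPKM in Lgr5- cells and 374 FPKM in Sox9+ cells. It was 2.13-fold lower in Lgr5- than in Sox9+ cells (log2 ratio -1.09), and the log2 ratio of Lgr5+ over Lgr5- was 0.75. Pgam1, phosphoglycerate mutase, had 194, 156 and 243 FPKM in the Lgr5+, Lgr5- and Sox9+ libraries. It kept the order of Pgk1 over the 3 libraries with a narrower spread.

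Eno1, which encodes enolase, was the member with the highest FPKM in every library, at 1065 FPKM in Lgr5+, 655 FPKM in Lgr5- and 935 FPKM in Sox9+ cells. It ranked 54, 123 and 88 among all gene symbols of those libraries. Enolase reads have a near-identical second place to map, the retrogene Gm5506, which was listed at 3.68 FPKM in Lgr5+ cells, 2.55 FPKM in Lgr5- cells and 136 FPKM in Sox9+ cells. The sums of both genes were 1068, 658 and 1071 FPKM, so the log2 ratio of Lgr5+ over Sox9+ was 0.19 for Eno1 alone and -0.00 for the sum. How such reads were divided is not given in the sources used here, and the level of Eno1 in Sox9+ cells is uncertain to that extent. Eno2, neuronal enolase, was at 3.62, 2.44 and 4.16 FPKM. Pkm2, the files' symbol for the muscle pyruvate kinase gene without separation of its splice forms, had 871 FPKM in Lgr5+ cells, 630 FPKM in Lgr5- cells and 779 FPKM in Sox9+ cells. Its log2 ratio of Lgr5+ over Lgr5- was 0.47, near the median of the members.

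All 3 genes that set the fate of pyruvate were over 1.5-fold higher in Lgr5+ than in Lgr5- cells. Ldha, the lactate dehydrogenase subunit tied to lactate formation, had 778 FPKM in Lgr5+ cells, 462 FPKM in Lgr5- cells and 832 FPKM in Sox9+ cells. Ldhb, the heart-type subunit, had 436 FPKM in Lgr5+ cells, 240.0 FPKM in Lgr5- cells and 300.4 FPKM in Sox9+ cells. Ldhb thus stood above both other libraries in Lgr5+ cells, while Ldha was near its Sox9+ level there. The ratio of Ldha to Ldhb FPKM was 1.78 in Lgr5+ cells, 1.93 in Lgr5- cells and 2.77 in Sox9+ cells. Pdk1, the kinase that inactivates pyruvate dehydrogenase, was at 31.4, 16.9 and 25.2 FPKM, with a log2 ratio of 0.86 for Lgr5+ over Lgr5-. The fructose 2,6-bisphosphate enzymes were again unlike each other. Pfkfb3, a strong activator of phosphofructokinase, had 9.41, 5.01 and 6.59 FPKM in the Lgr5+, Lgr5- and Sox9+ libraries. Pfkfb4, a related bifunctional enzyme, had 3.04, 2.64 and 1.82 FPKM.

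**Figure D2:**
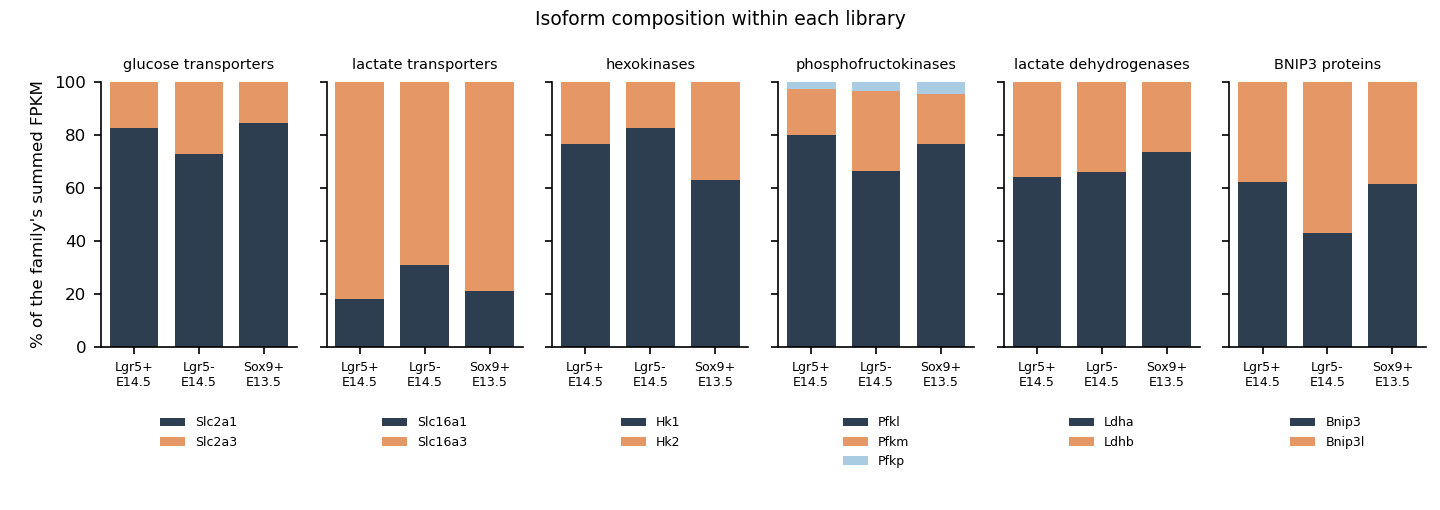
Percent of a family's summed FPKM carried by each gene, with 1 stacked bar per library (Lgr5+ E14.5, Lgr5- E14.5 and Sox9+ E13.5 from left to right) for 6 families. Pfkl, Slc2a1, Slc16a3 and Bnip3 take their smallest share in Lgr5- cells, at 66.4%, 72.7%, 69.1% and 43.0%, and Ldha takes 64.1%, 65.8% and 73.5% from left to right.

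Hif1a, which encodes the HIF1 alpha subunit, was the most abundant HIF alpha gene. Hif3a, a HIF alpha gene outside the member list, was at 1.94 FPKM in Lgr5+ cells, 3.12 FPKM in Lgr5- cells and 3.11 FPKM in Sox9+ cells. Hif1a had 52.4 FPKM in Lgr5+ cells, 35.6 FPKM in Lgr5- cells and 59.8 FPKM in Sox9+ cells, and its log2 ratios were 0.54 for Lgr5+ over Lgr5- and -0.73 for Lgr5- over Sox9+. Epas1, which encodes HIF2 alpha and is abundant in endothelium, was at 0.11, 0.32 and 0.69 FPKM, under the minimum in every pair. HIF activity is set mainly at the protein level, which these libraries do not measure. Egln1, the prolyl hydroxylase PHD2, varied little, with 42.7, 35.7 and 35.1 FPKM. Egln3, the prolyl hydroxylase PHD3 and itself a HIF target, was near the minimum, at 1.06 FPKM in Lgr5+ cells, 0.52 FPKM in Lgr5- cells and 2.06 FPKM in Sox9+ cells. It was 2.01-fold lower in Lgr5- than in Sox9+ cells, both values lying close to the 1 FPKM minimum.

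The HIF targets outside glycolysis held 2 of the 3 members past 2-fold between the Lgr5+ and Lgr5- libraries, Bnip3 and Higd1a. Bnip3, a receptor for the removal of mitochondria by autophagy, had 104 FPKM in Lgr5+ cells, 36.8 FPKM in Lgr5- cells and 74.7 FPKM in Sox9+ cells. It was 2.79-fold higher in Lgr5+ than in Lgr5- cells (log2 ratio 1.48), place 204 from the top of 12438 measured genes, and 2.0-fold lower in Lgr5- than in Sox9+ cells. Its paralog Bnip3l, also a mitophagy receptor, had 64.05, 48.8 and 46.7 FPKM, so Bnip3 was 62.0% of the sum of both in Lgr5+ cells, 43.0% in Lgr5- cells and 61.5% in Sox9+ cells. The paralogs therefore changed order: Bnip3 was the higher one in the Lgr5+ and Sox9+ libraries, Bnip3l in Lgr5- cells. Higd1a, a small protein of the inner mitochondrial membrane, had 57.6 FPKM in Lgr5+ cells, 26.8 FPKM in Lgr5- cells and 61.2 FPKM in Sox9+ cells. It was 2.11-fold higher in Lgr5+ than in Lgr5- cells and 2.24-fold lower in Lgr5- than in Sox9+ cells. Adm, which encodes the vasodilator peptide adrenomedullin, followed the same order at low levels, with 4.52, 1.98 and 6.34 FPKM, and was 2.46-fold lower in Lgr5- than in Sox9+ cells.

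Ddit4, which encodes the mTORC1 inhibitor REDD1, took another pattern. It had 34.8 FPKM in Lgr5+ cells, 17.3 FPKM in Lgr5- cells and 14.4 FPKM in Sox9+ cells. The Lgr5+ value was 1.95-fold that of the Lgr5- library and 2.32-fold that of the Sox9+ library (log2 ratio 1.21), the highest of any member in that second pair. Vegfa, the main vessel growth factor, had 64.8, 44.0 and 45.7 FPKM in the Lgr5+, Lgr5- and Sox9+ libraries, with log2 ratios of 0.55 for Lgr5+ over Lgr5- and 0.49 for Lgr5+ over Sox9+. Ankrd37, an ankyrin repeat protein, had 15.3, 10.8 and 9.85 FPKM. Vegfa, Ankrd37, Ddit4 and Bnip3l were thus highest in Lgr5+ cells while the Lgr5- and Sox9+ values lay within a log2 ratio of 0.25 of each other. Car9, a carbonic anhydrase of the cell surface, reached the minimum in Sox9+ cells alone, with 0.86 FPKM in Lgr5+ cells, 0.68 FPKM in Lgr5- cells and 3.24 FPKM in Sox9+ cells. It was 2.28-fold lower in Lgr5+ and 2.52-fold lower in Lgr5- cells than in Sox9+ cells. Ndrg1, a stress-responsive cytoplasmic protein, had 2.69, 3.21 and 1.83 FPKM.

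HIF binds DNA at a core of 5 letters, ACGTG or GCGTG. Promoter windows of 300 bases, from 250 bases before to 50 bases after an annotated start, were taken from RefSeq on GRCm38.p6, and 33 members had 47 windows there. The sequences below belong to the members that were at least 2-fold apart with a Lgr5+ library in the pair, and to Gapdh, whose Lgr5+ and Lgr5- values were nearly equal. They are written from 5′ to 3′ on the strand of the gene, and the capitals mark the core on either strand, with overlapping matches run together. The windows lie at chr7:138909457-138909756 on the minus strand for Bnip3, chr11:120948817-120949116 on the plus strand for Slc16a3, chr9:121857747-121858046 on the minus strand for Higd1a, chr10:59951721-59952020 on the minus strand for Ddit4, chr4:43506776-43507075 on the plus strand for Car9 and chr6:125165724-125166023 on the minus strand for Gapdh.
Bnip3: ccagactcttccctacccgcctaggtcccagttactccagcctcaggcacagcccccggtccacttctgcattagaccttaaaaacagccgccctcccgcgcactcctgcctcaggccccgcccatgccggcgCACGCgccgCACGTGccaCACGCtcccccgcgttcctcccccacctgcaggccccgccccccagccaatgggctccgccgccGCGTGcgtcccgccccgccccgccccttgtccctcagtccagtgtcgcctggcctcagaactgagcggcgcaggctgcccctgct
Slc16a3: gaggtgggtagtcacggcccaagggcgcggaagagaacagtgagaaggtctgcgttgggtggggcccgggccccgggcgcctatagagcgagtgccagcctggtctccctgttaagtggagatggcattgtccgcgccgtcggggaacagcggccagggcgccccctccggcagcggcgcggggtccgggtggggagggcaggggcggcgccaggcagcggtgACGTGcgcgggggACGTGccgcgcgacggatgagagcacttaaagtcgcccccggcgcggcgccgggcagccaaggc
Higd1a: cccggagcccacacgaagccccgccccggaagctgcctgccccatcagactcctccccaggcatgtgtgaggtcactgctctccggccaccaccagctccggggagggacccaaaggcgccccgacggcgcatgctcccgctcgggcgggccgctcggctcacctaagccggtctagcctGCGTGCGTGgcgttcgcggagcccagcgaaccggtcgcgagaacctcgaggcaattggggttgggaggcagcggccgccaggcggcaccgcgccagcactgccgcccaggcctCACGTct
Ddit4: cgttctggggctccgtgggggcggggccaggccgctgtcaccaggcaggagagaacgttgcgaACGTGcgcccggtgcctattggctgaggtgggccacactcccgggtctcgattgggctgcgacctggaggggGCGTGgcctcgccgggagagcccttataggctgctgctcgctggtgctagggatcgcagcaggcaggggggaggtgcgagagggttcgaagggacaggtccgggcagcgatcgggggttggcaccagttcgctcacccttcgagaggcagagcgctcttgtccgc
Car9: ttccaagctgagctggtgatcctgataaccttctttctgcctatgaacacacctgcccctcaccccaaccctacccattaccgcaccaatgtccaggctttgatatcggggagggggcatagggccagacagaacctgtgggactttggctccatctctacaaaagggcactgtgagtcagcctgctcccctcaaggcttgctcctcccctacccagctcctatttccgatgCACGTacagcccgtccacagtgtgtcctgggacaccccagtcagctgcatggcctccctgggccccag
Gapdh: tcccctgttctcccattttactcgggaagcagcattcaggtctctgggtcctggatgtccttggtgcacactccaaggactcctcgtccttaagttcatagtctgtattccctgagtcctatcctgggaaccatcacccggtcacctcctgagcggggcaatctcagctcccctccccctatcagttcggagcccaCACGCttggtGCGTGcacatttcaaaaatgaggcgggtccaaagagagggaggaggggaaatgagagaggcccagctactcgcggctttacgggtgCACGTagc

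The Bnip3 window held 4 sites, the farthest beginning 117 bases and the nearest 35 bases before the start, and 1 of them, CACGTG, reads as the core on both strands and is also an E-box. Slc16a3 had 2 sites, 27 and 14 bases before the start. Higd1a had 2, of which 1 is a pair of overlapping cores 70 bases before the start and the other lies after it. Ddit4 had 2 sites at 187 and 115 bases before the start, and Car9 had 1 at 18 bases. Gapdh had 3 sites. Ldha had the most sites in 1 window, with 5.

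Of the 47 windows of members, 38 (80.9%) held at least 1 core, against 43.8% of all 32851 windows of the same length and 62.1% of the 11645 windows of genes at 1 FPKM or more in a library. At least 2 sites were found in 59.6% of member windows, against 17.3% of all windows and 30.0% of those of genes at 1 FPKM or more. By gene, 30 of the 33 members had a core in some window, and Gpi1, Tpi1 and Eno2 had none in theirs. Some members were listed as known HIF targets, so a higher share than that of all windows was partly built into the list. Windows of the same gene can overlap and share sites, as for Eno1 and Aldoa, so windows are not independent. A match describes letters in a window, and no binding was measured in these libraries.

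Set against all genes, the members were shifted between the Lgr5+ and Lgr5- libraries. Of 35 measured members, 32 had a log2 ratio above 0, and the median was 0.48, against 0.08 over all 12438 measured genes, of which 59.4% were above 0. At least 2-fold higher were 3 (Bnip3, Slc16a3 and Higd1a), or 8.57%, against 3.64% of all measured genes. No member was 2-fold lower, against 1.89% of all. At 1.5-fold, 15 members (42.9%) were higher, against 9.47% of all genes, and none was lower, against 5.96%. Most members therefore differed by less than 2-fold and in the same direction, and the 3 below 0 were Pfkm, Gapdh and Ndrg1. By role the median log2 ratios were 0.55 for transporters, 0.40 for upper and 0.45 for lower glycolysis, 0.86 for pyruvate fate, 0.47 for both Pfkfb genes, 0.44 for HIF subunits and prolyl hydroxylases, and 0.72 for HIF targets.

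**Figure D3:**
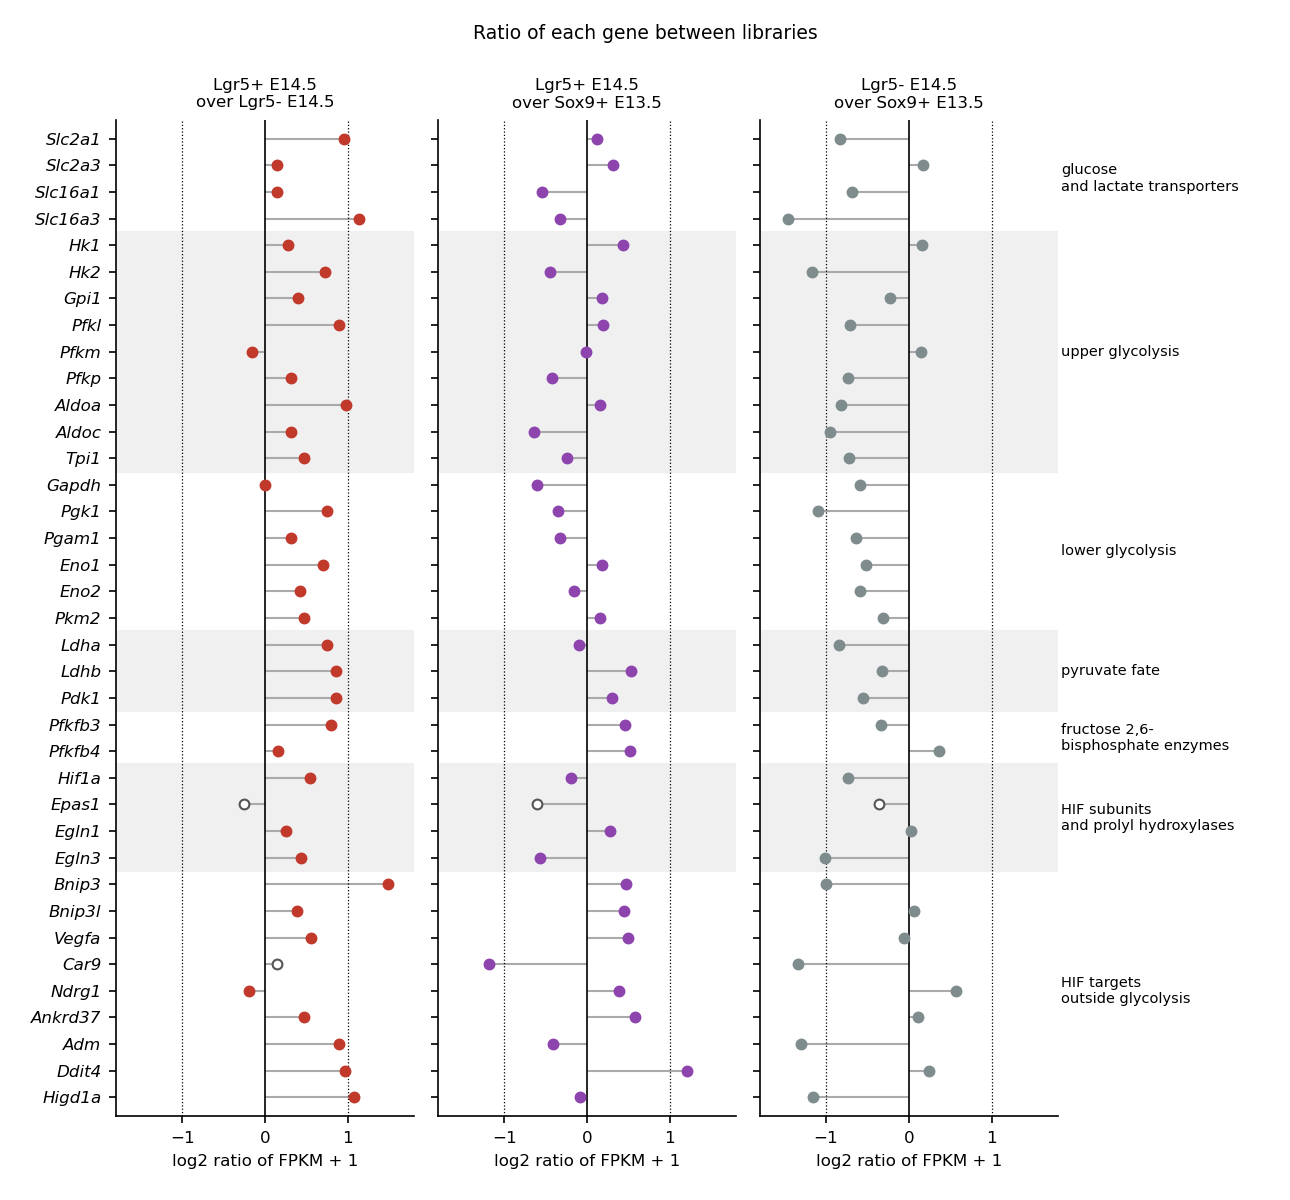
Log2 ratio of FPKM + 1 for each gene in the 3 pairs of libraries (Lgr5+ over Lgr5-, Lgr5+ over Sox9+, Lgr5- over Sox9+ from left to right), with dotted lines at 2-fold and open circles for genes under 1 FPKM in both libraries of a pair. Most points lie right of 0 in the first panel, on both sides in the second and left of 0 in the third.

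Between the Lgr5+ and Sox9+ libraries the members were spread around 0. Of 36 measured members 19 (52.8%) had a log2 ratio above 0, against 55.6% of all 12492 measured genes, and the median was 0.14, against 0.06. Ddit4 was the 1 member at least 2-fold higher, against 4.33% of all genes, and Car9 the 1 member at least 2-fold lower, against 3.96%. At 1.5-fold 2 members were higher and 3 lower, against 12.6% and 9.9% of all genes. The members' shares lie below those of all genes. Pfkm, Ldha and Higd1a, with log2 ratios of -0.01, -0.10 and -0.08, were above 0 after rescaling to TPM. Over all genes 541 were 2-fold higher and 495 lower as deposited, and 981 higher and 533 lower after rescaling to TPM.

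Between the Lgr5- and Sox9+ libraries the members were lower. The median log2 ratio of 36 measured members was -0.61, against -0.01 over all 12482 measured genes, and 9 (25%) were above 0, against 49.4% of all. At least 2-fold lower were 8 members (22.2%), against 4.94% of all measured genes, namely Slc16a3, Car9, Adm, Hk2, Higd1a, Pgk1, Egln3 and Bnip3. The count was 6 after rescaling to TPM and 5 with Rn45s and the red blood cell genes left out of the library sum. None was 2-fold higher, against 3.08% of all. At 1.5-fold 20 members (55.6%) were lower, against 12.8%, and none was higher, against 9.5%. Over all genes 384 were 2-fold higher and 617 lower as deposited, 706 and 644 after rescaling to TPM, and 486 and 489 when Rn45s and the red blood cell genes were left out of the library sum. The median of all genes moved by over 0.1 under those scalings, and relative to it the members' median was -0.61 as deposited, -0.62 after TPM and -0.61 with that sum. By role the medians in this pair were -0.76 for transporters, -0.72 for upper and -0.59 for lower glycolysis, -0.55 for pyruvate fate, 0.02 for both Pfkfb genes, -0.73 for HIF subunits and prolyl hydroxylases, and -0.06 for HIF targets. The target role was split, with 4 of 9 genes at least 2-fold lower and 4 of 9 above 0.

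**Figure D4:**
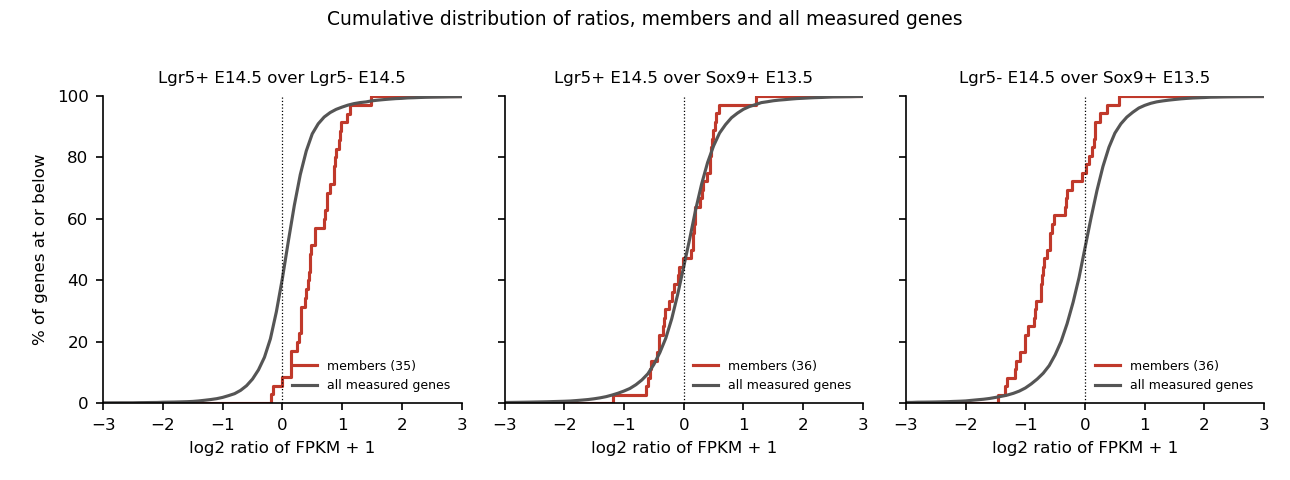
Percent of genes at or below each log2 ratio of FPKM + 1, for the measured members (stepped line) and for all measured genes (smooth line), in the 3 pairs of libraries. The members' line lies right of that of all genes for Lgr5+ over Lgr5- (medians 0.48 and 0.08), close to it for Lgr5+ over Sox9+ (0.14 and 0.06) and left of it for Lgr5- over Sox9+ (-0.61 and -0.01).

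Between the Lgr5+ and Lgr5- libraries, neighbouring pathways had medians nearer 0 than the members. In that pair the tricarboxylic acid cycle, which oxidises acetyl-CoA, had 17 measured genes, none 2-fold apart. Its median log2 ratio was 0.05, with a range from -0.40 to 0.41. The pentose phosphate pathway, a side branch from glucose phosphate, had 8 measured genes, none 2-fold apart, with a median of -0.02. Glycogen metabolism had a median of 0.15 over 11 genes and pyruvate entry into mitochondria 0.21 over 10, again with none 2-fold apart. Other glycolytic enzymes and isoforms, 14 measured, had a median of 0.25. At 1.5-fold 3 of them (21.4%) were higher and 1 (7.14%) lower, against 9.47% and 5.96% of all genes. The lower one was Slc2a4, the insulin-responsive glucose transporter. It was 2.21-fold lower, at 2.19 FPKM in Lgr5+ cells and 6.06 FPKM in Lgr5- cells. The 15 HIF pathway regulators had a median of 0.09 and none 2-fold apart.

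Other genes known to be induced by hypoxia had medians nearer those of the members in both pairs with Lgr5- cells. In the Lgr5+ over Lgr5- pair 35 were measured, 4 were 2-fold higher and none lower, and the median log2 ratio was 0.39. Plod2, a collagen lysyl hydroxylase, had 132 FPKM in Lgr5+ cells, 35.5 FPKM in Lgr5- cells and 134 FPKM in Sox9+ cells. P4ha2, a subunit of collagen prolyl hydroxylase, had 78.7, 32.2 and 99.7 FPKM in that order, and the other genes past 2-fold were Stc1 and Trf. Both collagen enzymes thus shared the low Lgr5- value of Slc16a3 and Higd1a. In the Lgr5- over Sox9+ pair the median of the list was -0.52, with 8 of 35 at least 2-fold lower, led by Ndufa4l2, Errfi1, Plod2 and P4ha2. The 2 genes higher there were Angptl4 and Lox, named after their values were seen. For Lgr5+ over Sox9+ the median was -0.09, with Trf and Stc1 2-fold higher and 4 genes lower, led by Ndufa4l2 and Errfi1. Among the HIF regulators, Cited2, which competes with HIF for its coactivators, was 2.67-fold lower in Lgr5+ and 2.55-fold lower in Lgr5- cells than in Sox9+ cells, at 58.6, 61.5 and 158 FPKM. The remaining lists of the metabolic branches had medians between -0.12 and 0.24 in the pairs with the Sox9+ library. Eno3, the muscle enolase, was 2-fold lower in both pairs, with 13.3 FPKM in Lgr5+ cells, 10.6 FPKM in Lgr5- cells and 32.2 FPKM in Sox9+ cells. Pdk4, another kinase of pyruvate dehydrogenase, was also lower in both, at 0.26, 0.78 and 2.64 FPKM. Slc16a7 and Pygl were 2-fold lower in Lgr5+ than in Sox9+ cells.

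**Figure D5:**
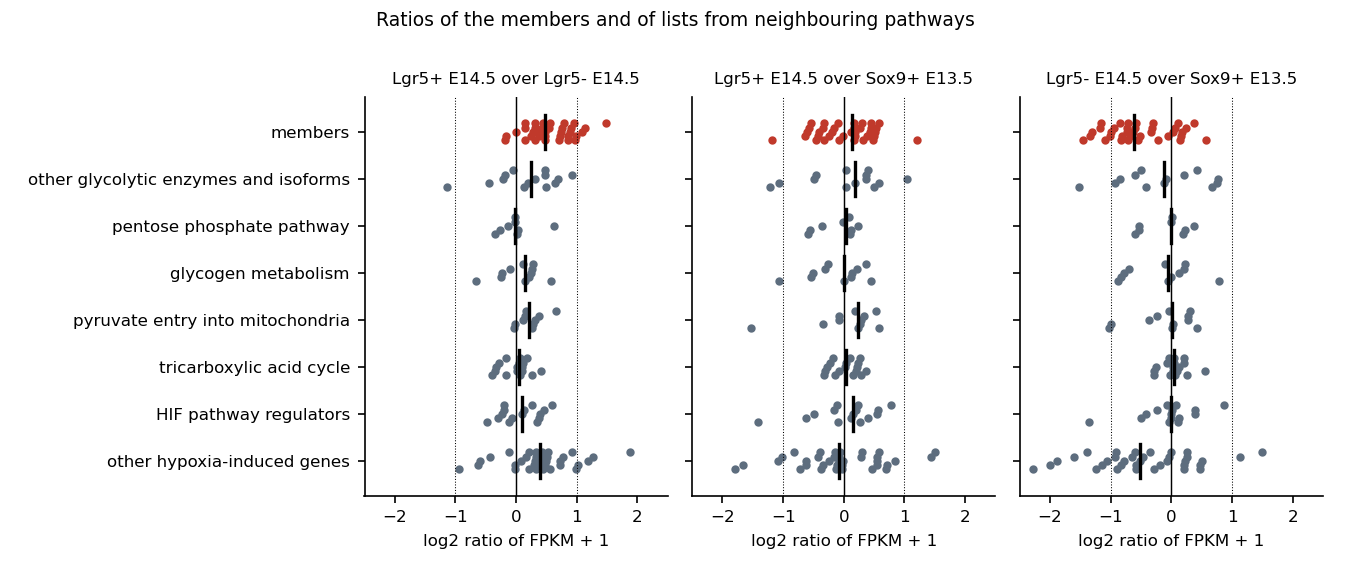
Log2 ratio of FPKM + 1 of each measured gene in the member group and in 7 lists of neighbouring pathways, for the 3 pairs of libraries, with a bar at each median and dotted lines at 2-fold. Medians for Lgr5+ over Lgr5- are 0.48 for the members, 0.39 for other hypoxia-induced genes and 0.05 for the tricarboxylic acid cycle.

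Genes of other cell types also differed between the libraries, and their part in the results was not tested. Skeletal muscle, which is rich in glycolytic enzymes, had 11 of 13 measured markers 2-fold higher in Lgr5+ than in Lgr5- cells, with summed levels of 129 FPKM in Lgr5+ cells, 35.7 FPKM in Lgr5- cells and 30.8 FPKM in Sox9+ cells. None of the muscle markers was at 0, and the adult creatine kinase gene Ckm was at 0.05, 0.17 and 0.06 FPKM. A set of 6 members chosen as abundant in muscle was left out (Aldoa, Pfkm, Slc16a3, Hk2, Pkm2 and Ldha). Other glycolytic members, such as Gapdh, Pgk1 and Eno1, stayed in. The medians were then 0.47 for Lgr5+ over Lgr5-, 0.18 for Lgr5+ over Sox9+ and -0.59 for Lgr5- over Sox9+. Red blood cell markers summed to 151 FPKM in Lgr5+ cells, 3979 FPKM in Lgr5- cells and 142 FPKM in Sox9+ cells, with 8 of 9 measured markers 2-fold lower in Lgr5+ than in Lgr5- cells and Hbb-bh1 and Epb4.2 at 0 in Lgr5+ cells. Of 11 measured epidermis markers 7 were 2-fold higher in Lgr5+ than in Lgr5- cells, while Epcam, Krt18 and Krt8 were lower by less than 2-fold. The epidermis list summed to 68.2, 27 and 68.0 FPKM in the Lgr5+, Lgr5- and Sox9+ libraries. Of 10 measured macrophage markers 3 were 2-fold higher in Lgr5+ than in Lgr5- cells, and Lyz2 was lower by less than 2-fold. The macrophage list summed to 88.8, 46.5 and 11.95 FPKM in the same order. Of 8 measured endothelial markers none was 2-fold apart between the Lgr5+ and Lgr5- libraries, with sums of 18.3, 24.9 and 13.95 FPKM.

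Summed levels of cartilage markers and of genes of the response to handling were highest in the Sox9+ library, though not for every gene. The part of these genes in the results was not tested. Cartilage markers summed to 3323 FPKM in Lgr5+ cells, 2069 FPKM in Lgr5- cells and 8042 FPKM in Sox9+ cells, with 10 of 11 at least 2-fold lower in Lgr5- than in Sox9+ cells. Sox9 itself was at 332, 147 and 255 FPKM in the Lgr5+, Lgr5- and Sox9+ libraries. Sox9 and the cartilage sum, of which Col2a1 made up 2253, 1401 and 5304 FPKM, were lowest in Lgr5- cells. The median level over the markers was 41.5 FPKM in Lgr5+ cells, 63.5 FPKM in Lgr5- cells and 255 FPKM in Sox9+ cells. It fell on Matn1, Lect1 and Sox9 in that order, so it does not follow the same gene across libraries. Gene by gene, the median log2 ratio of the markers for Lgr5+ over Lgr5- was 0.69. Comp, a matrix protein, had 3.9 FPKM in Lgr5+ cells, 15.8 FPKM in Lgr5- cells and 120 FPKM in Sox9+ cells. Matn1, another, had 41.5, 93.8 and 546 FPKM in that order. Comp and Matn1 were over 2-fold lower in Lgr5+ than in Lgr5- cells, the 2 of 11 markers below 0 in that pair. The other 9 were above 0, and Sox5, Sox6 and Sox9 were over 2-fold higher. Interzone markers at least 2-fold higher in Lgr5+ cells were 8 of 10 against the Lgr5- library and 6 of 10 against the Sox9+ library. Both counts include Lgr5, whose reporter set the sort. Cd44 alone was below 0 in both pairs, with log2 ratios of -0.61 and -0.26. Genes known to respond to tissue dissociation summed to 6210 FPKM in Lgr5+ cells, 5982 FPKM in Lgr5- cells and 10940 FPKM in Sox9+ cells. Their median log2 ratios were -0.01 for Lgr5+ over Lgr5-, -0.84 for Lgr5+ over Sox9+ and -0.75 for Lgr5- over Sox9+. Of 20 measured, 9 were 2-fold lower in Lgr5+ and 7 in Lgr5- than in Sox9+ cells. In each of these pairs 1 was 2-fold higher. Hspa1a, the farthest apart, had 20.2, 16.1 and 1116 FPKM in the Lgr5+, Lgr5- and Sox9+ libraries. The ribosomal RNA precursor Rn45s took 1.86%, 6.13% and 6.43% of all FPKM in the 3 libraries.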

How the data were processed

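Sorted digit cells gave 3 RNA-seq libraries, 1 per group, made with the SMARTer Ultra Low Input kit from 10 ng of total RNA, per the labels. The authors deposited FPKM values per gene symbol, rounded to 2 decimals. The submitters' processing notes name HISAT2 and the build mm10, also called GRCm38. Neither quantifier nor annotation is given in the sources used here. Since the kit does not mark strand, overlapping antisense genes were not separated.

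The deposited FPKM values were not rescaled. For each pair of libraries the log2 ratio of FPKM + 1 was taken for genes at 1 FPKM or more in the higher library, and genes at least 2-fold or 1.5-fold apart were counted. No test, error or p-value is possible with 1 library per group, and no replicate could be left out. The low values were searched for whole-fragment steps: the best scores were 0.293, 0.293 and 0.334, where 1 would mean whole fragments, so depth stayed unknown and no count test was used. The steps were tested on simulated data. Every member is given with its values; of other lists, genes 2-fold apart were named, at most 4 per list and pair, and some list genes are not reported here. The members and all lists were chosen with earlier results of these data known. Promoter windows came from RefSeq (GRCm38.p6). Alternatives were a pseudocount of 0.1, a minimum of 10 FPKM or none, 4 scalings, and leaving out 6 members chosen as muscle-abundant. The others were a 1.5-fold threshold and Eno1 summed with Gm5506, the last chosen after seeing the data. Scripts used python 3.11.15, numpy 2.4.6 and pandas 2.3.3.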

Additional observations from a re-analysis of the deposited data

How the results depend on the processing

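No median of the members changed direction under the 10 alternatives, nor did any ratio at least 2-fold apart. Under the 4 scalings 5 ratios near 0 changed sign: Gapdh for Lgr5+ over Lgr5-, Pfkm, Ldha and Higd1a for Lgr5+ over Sox9+, and Vegfa for Lgr5- over Sox9+; summing with Gm5506 turned Eno1 for Lgr5+ over Sox9+ to -0.00. The median log2 ratio of the members stayed between 0.38 and 0.56 for Lgr5+ over Lgr5- and between -0.68 and -0.50 for Lgr5- over Sox9+. For Lgr5+ over Sox9+ the median of 0.14 moved to 0.27 after rescaling to TPM, 0.22 with Rn45s and red blood cell genes left out of the sum, 0.066 with upper quartile and 0.072 with median of ratios scaling, and 0.057 with Eno1 and Gm5506 summed; the last was chosen after seeing the data. The count of members 2-fold higher in Lgr5+ than in Lgr5- cells was 3 as deposited and 5 with a pseudocount of 0.1 FPKM. It was 6 after TPM, 15 at 1.5-fold, 2 with upper quartile scaling and 2 without the 6 members chosen as abundant in muscle. For Lgr5+ over Sox9+ the 1 member lower became 0 with a minimum of 10 FPKM, since Car9 is then not measured, and at 1.5-fold 2 were higher and 3 lower. For Lgr5- over Sox9+ the 8 members lower became 5 with a minimum of 10 FPKM. The count was also 5 with the sum without Rn45s and red blood cell genes, 20 at 1.5-fold and 9 with a pseudocount of 0.1 FPKM. It was 6 with TPM, with upper quartile scaling and without the 6 members chosen as abundant in muscle. The cause of the other moves was not tested. Of 856 single-gene ratios under alternatives, 842 kept their side of 2-fold, 8 fell under 2-fold and 6 passed it. No paired analysis was possible because each group has 1 library. Depth is unknown, so values near 1 FPKM, such as those of Egln3, Car9 and Epas1, have an unknown counting error.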

Other observations

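Isoforms of the same steps known from testis were at or near 0. Pgk2, Aldoart1 and Aldoart2, known from testis, and Pklr, the liver and red cell pyruvate kinase, were listed at 0 in all 3 libraries. Ldhc, the testis lactate dehydrogenase, was listed at 0.13 FPKM in Lgr5+ cells, 0.08 FPKM in Lgr5- cells and 0.04 FPKM in Sox9+ cells. Gapdhs, the sperm form of Gapdh, was at 0.07 FPKM in Lgr5+ cells and 0 in both others. The muscle mutase Pgam2 was at 7.31 FPKM in Lgr5+ cells, 8.41 FPKM in Lgr5- cells and 4.54 FPKM in Sox9+ cells. Gm5506 was 29.3-fold lower in Lgr5+ and 38.7-fold lower in Lgr5- than in Sox9+ cells.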
